A study of Mus musculus with 6 samples.

Results

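The basement membrane is the sheet of matrix on which an epithelium sits, and 39 genes of it and of its receptors were followed here in embryonic mouse lungs, out of 22180 genes measured. They were chosen by family, with earlier results of these data known. Of them, 24 encode basement membrane proteins (10 laminin chains, 6 collagen IV chains, the nidogens, perlecan, agrin, nephronectin and 3 proteins of the Fraser complex) and 15 encode integrin subunits. All 39 were found on the array, 37 through 1 probe set and 2 (Nid1 and Itgav) through 2, and for these the brighter probe set stands for the gene. Dim values were not filtered out, so every member was tested.

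Each of 6 microarrays held the RNA of whole lung buds taken at E12.5, while the airway tree branches. The 3 mutant lungs had the genotype Fzd2Flox/Flox; Shh cre/+, that is, floxed Fzd2 on both chromosomes together with 1 Cre allele at Shh. The 3 control lungs were Shh cre/+, so both groups carried the same Cre allele, and the labels mention no floxed allele in controls. Shh is active in the lung epithelium, so the recombination is aimed there while each array measured epithelium, mesenchyme and vessels together. The purpose given by the submitters was to find genes under the control of Fzd2, a Frizzled receptor for Wnt ligands, in that epithelium. The labels call the arrays biological replicates without saying how many lungs went into each.

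Background on these molecules helps in reading the values. Laminins are three-armed glycoproteins of an alpha, a beta and a gamma chain that assemble first on the cell surface. Collagen IV then forms a covalent network, and nidogens, perlecan and agrin tie both layers together. Integrins are receptors of an alpha and a beta subunit that bind this matrix outside the cell and the actin or keratin skeleton inside it. In the branching lung the sheet thins at growing tips and is thicker along the stalks, and it lies between the epithelium and the mesenchyme that signal to each other.

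Some facts of the whole series bear on the results. Fzd2 had log2 expression values of 9.67, 9.07 and 9.54 in mutants, against 9.57, 9.82 and 9.75 in controls, a log2 difference (mutant minus control, as throughout) of -0.29 with a standard error (SE) of 0.15. The array labelled mutant replicate 1 lay inside the control range, limma's adjusted p was 0.475, and the exact permutation p (two-sided) was 0.2, with 0.1 the smallest that 3 arrays against 3 allow. The sources do not place the probe set relative to the deleted part of Fzd2, so this is a weak check of the labels. The lung transcription factor gene Nkx2-1 was bright in every array (10.05 to 10.09 in mutants, 10.41 to 10.57 in controls). Mutant replicate 2 stood apart in adipose genes, with Fabp4 at 12.92, against 8.52 in control replicate 3 and 5.99 to 6.73 in the other arrays. Control replicate 1 stood apart in small intestine genes, with Lyz1 at 10.96 against 6.05 or less. Results are therefore also given without mutant replicate 2 and control replicate 1. Those fits keep control replicate 3, in which Fabp4 was also raised. Array medians ran from 7.29 to 7.32, and with 3 arrays a group the precision of each value is limited.

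None of the 39 genes passed limma at an adjusted p under 0.05 (0 of 39, where 0.0631% of all genes were called), and the smallest adjusted p was 0.160, that of Lamb3. At an unadjusted p under 0.05 there were 11 members, of which 8 had lower and 3 had higher means in mutants. That is 20.5% of the members lower, against 5.15% of all genes, and 7.69% higher, against 7.34% of all genes. The groups did not overlap in 11 members (28.2%, against 19.4% of all genes), 8 of them lower (against 8.83% of all genes) and 3 higher (against 10.6%). These were 10 of the 11 just counted, all except Col4a6, together with Itgav. These shares describe the members and were not tested, since the families were chosen with earlier results of these data known.

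The differences were small. They ran from -0.26 (Lamb3) to 0.20 (Itgb8) on the log2 scale, that is, from 83.6% to 115% of the control level. No 95% interval of a member reached below -0.40 or above 0.37, and the median half-width of these intervals was 0.17. The median difference was 0.0036 over the members, with 20 higher and 19 lower means, against 0.011 over all genes. It was -0.011 over the 24 basement membrane genes (11 higher, 13 lower) and 0.024 over the 15 integrin genes (9 higher, 6 lower). Of the matrix genes 8 of 24 were at an unadjusted p under 0.05, 6 of them lower, and of the receptor genes 3 of 15, 2 of them lower. That is 25% of matrix and 13.3% of receptor genes lower, against 5.15% of all genes. Higher were 8.33% and 6.67%, against 7.34% of all genes. Whether matrix and receptor genes differed from each other was not tested.

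**Figure D1:**
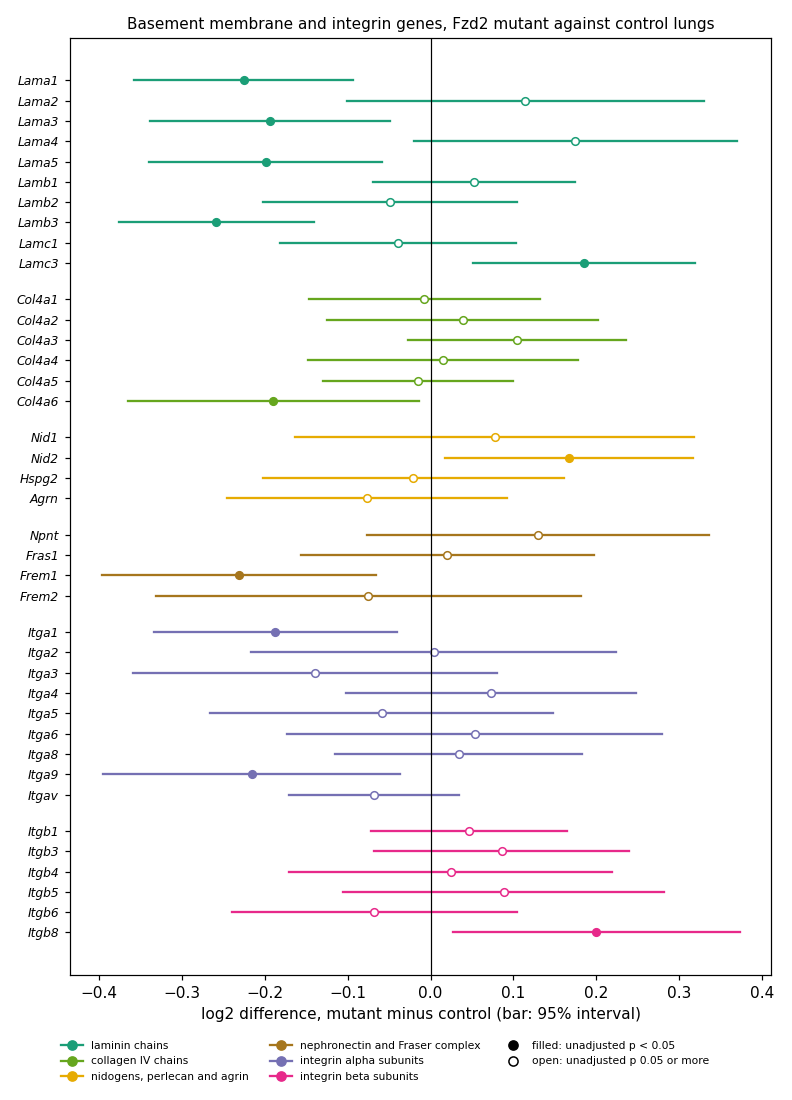
Log2 difference, mutant minus control, of each of the 39 genes (points) with its 95% interval from limma (bars), coloured by role. Filled points are the 11 genes at an unadjusted p under 0.05. Most points lie near 0, and the laminin genes Lama1, Lama3, Lama5 and Lamb3 lie together on the lower side, between -0.26 and -0.19.

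**Figure D2:**
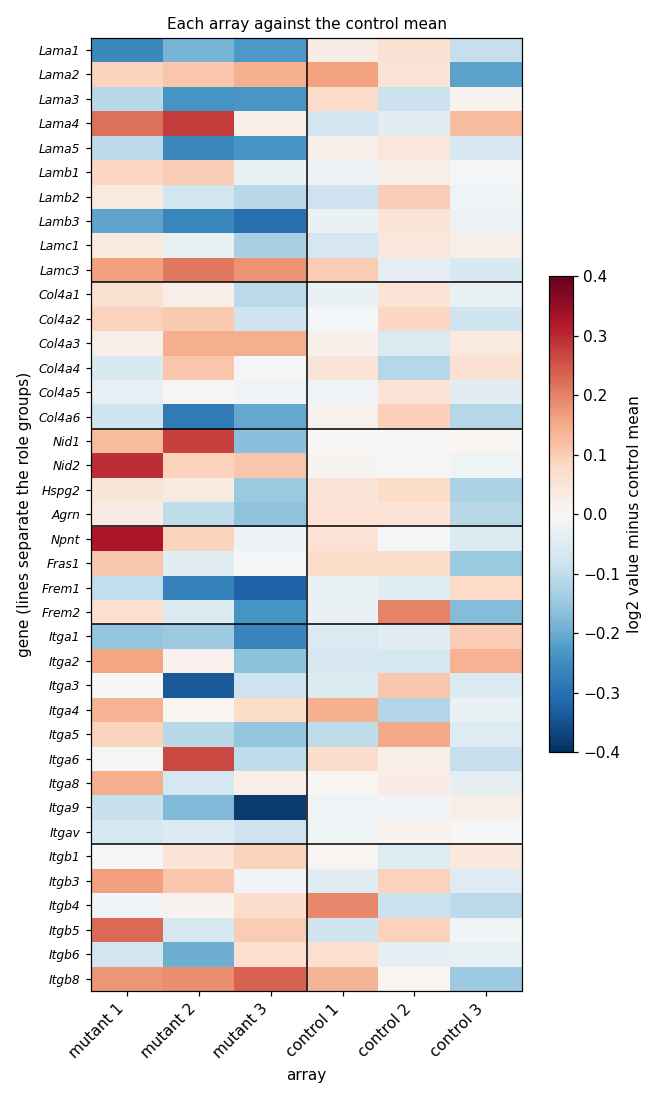
Log2 value of each gene on each array minus that gene's mean over the 3 control arrays, for the 3 mutant arrays (left) and the 3 control arrays (right), with lines between the role groups. Lama1, Lama3, Lama5, Lamb3, Col4a6, Frem1, Itga1, Itga9 and, faintly, Itgav are blue in all 3 mutant arrays. Lama2, Lamc3, Nid2, Itgb8 and, faintly in places, Lama4, Col4a3 and Itga4 are red in all 3. Most of the remaining rows mix both colours within the mutants.

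Of the 10 laminin chains, the largest family here, 5 were at an unadjusted p under 0.05. Of these, 4 were lower (against 5.15% of all genes) and 1 was higher (against 7.34%). Lamb3 encodes the beta chain of the laminin that anchors epithelia through hemidesmosomes. Its log2 values were 7.84, 7.79 and 7.75 in mutants, against 8.02, 8.10 and 8.03 in controls. Each mutant array lay below each control array. The log2 difference was -0.26 (SE 0.05, 95% interval -0.38 to -0.14), or 83.6% of the control level. Lama3, the alpha chain of the same laminin, had values of 10.125, 9.998 and 10.002 in mutants, against 10.31, 10.15 and 10.25 in controls. Its highest mutant array, replicate 1, lay just under the lowest control array, and the log2 difference was -0.19 (SE 0.06, adjusted p = 0.314 by limma).

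Lama1 and Lama5 encode the alpha chains of the main laminins under embryonic epithelia, of which the alpha 1 chain is the early one. For Lama1 the values were 8.81, 8.88 and 8.84 in mutants, against 9.10, 9.13 and 8.98 in controls. The mutant arrays were close to each other (SD 0.036) and all below the lowest control. This gave a log2 difference of -0.23 (SE 0.06, adjusted p = 0.232), or 85.5% of the control level. Lama5 had values of 9.58, 9.42 and 9.44 in mutants, against 9.70, 9.73 and 9.61 in controls. The groups were separate here too, although mutant replicate 1 came close to control replicate 3, and the log2 difference was -0.20 (SE 0.06, adjusted p = 0.294).

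The alpha chains known from muscle, nerve and vessels had higher means in mutants, without passing the unadjusted threshold. Lama2, the alpha chain of muscle and nerve basement membranes, had a log2 difference of 0.11 (SE 0.09, 95% interval -0.10 to 0.33), which was 0.0076 without control replicate 3, its lowest array. Lama4, the alpha chain of vessel walls, had values of 10.90, 10.96 and 10.70 in mutants, against 10.60, 10.63 and 10.80 in controls. Mutant replicate 3 lay inside the control range, so the groups overlapped, and the log2 difference was 0.17 (SE 0.08, adjusted p = 0.438). The Lama4 difference was 0.083 without control replicate 1 and mutant replicate 2 together. Differences between laminin genes were not themselves tested.

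The beta and gamma chains that most laminins share differed little. Lamb1 had a log2 difference of 0.053 (SE 0.05), Lamb2 one of -0.049 (SE 0.07) and Lamc1 one of -0.039 (SE 0.06). Their intervals lay between -0.20 and 0.17. The exception was Lamc3, a gamma chain of restricted expression best known from brain and retina. It had values of 7.24, 7.29 and 7.25 in mutants, against 7.17, 7.04 and 7.01 in controls. All mutant arrays were above all controls, and the log2 difference was 0.18 (SE 0.06, adjusted p = 0.304), at a signal near the median of all probe sets.

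**Figure D3:**
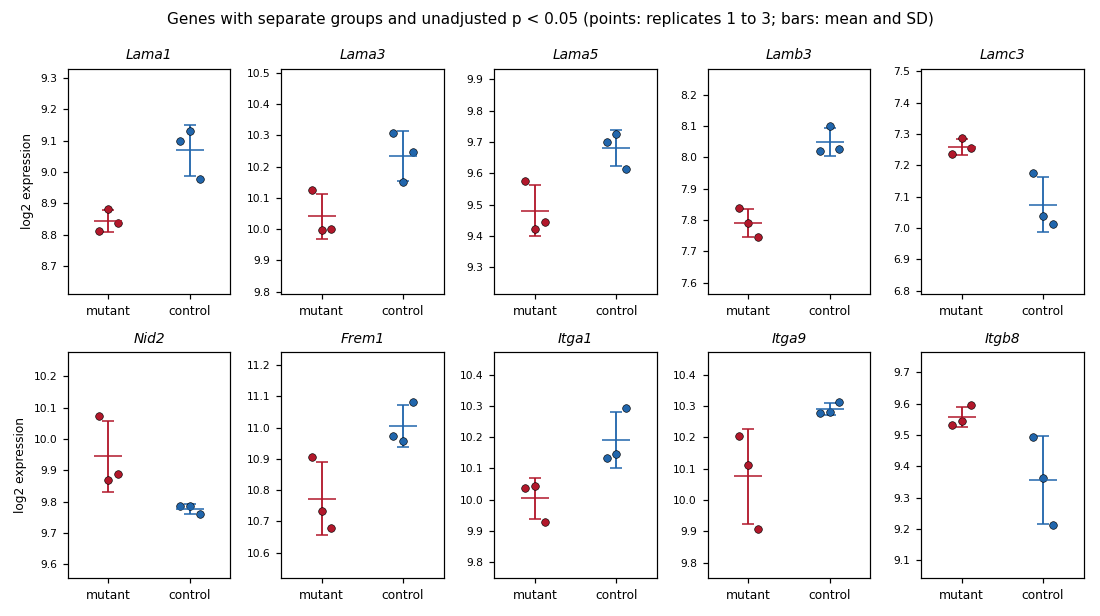
Log2 expression of the 10 genes whose mutant arrays (red, left) all lay on 1 side of the control arrays (blue, right) and whose unadjusted p was under 0.05. Points are the 3 replicates, bars the mean and SD, and each panel spans the same height on the log2 scale. In Lamb3 the groups lie well apart for their spread, and in Lama3 and Itgb8 the nearest arrays of the groups almost touch.

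Markers of epithelium were lower in mutants. Of the 10 laminin genes, 4 were lower and 1 was higher at an unadjusted p under 0.05. By mean alone 6 laminin genes were lower and 4 higher. Of 27 measured pan-epithelial genes, 26 had lower means in mutants. At an unadjusted p under 0.05 there were 19, of which 18 were lower (66.7%, against 5.15% of all genes). Of these Esrp1 passed over all genes (adjusted p = 0.033 by limma). The median log2 difference over the list was -0.26. The mean log2 value of that list was 8.860, 8.717 and 8.850 in mutants, against 9.077, 9.053 and 8.995 in controls, so the groups did not overlap. The differences of Lamb3, Lama1, Lama5 and Lama3 ran from -0.26 to -0.19. These genes were named because they were lower at an unadjusted p under 0.05, so their size cannot be weighed against the median of the epithelial list. The other laminin genes ran from -0.049 (Lamb2) to 0.18 (Lamc3). Of 16 lung mesenchyme markers, 8 were at an unadjusted p under 0.05, all higher (50%, against 7.34% of all genes). Of these Dcn passed over all genes (adjusted p = 0.024 by limma). Of the 16 markers, 9 had higher and 7 had lower means in mutants, and the median of their log2 differences was 0.17. Their list mean was higher on each mutant array (10.61, 10.60 and 10.57, against 10.44, 10.45 and 10.43 in controls). Of 12 endothelial markers, 4 had higher and 8 had lower means, and the median was -0.018. Of the lower ones 2 had separate groups (16.7% of the list, against 8.83% of all genes). The endothelial list mean overlapped between the groups. No marker has a value of 0 on this scale. The part of these markers in the laminin values was not tested, and in whole lungs fewer cells of a type and less RNA per cell cannot be told apart.

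**Figure D4:**
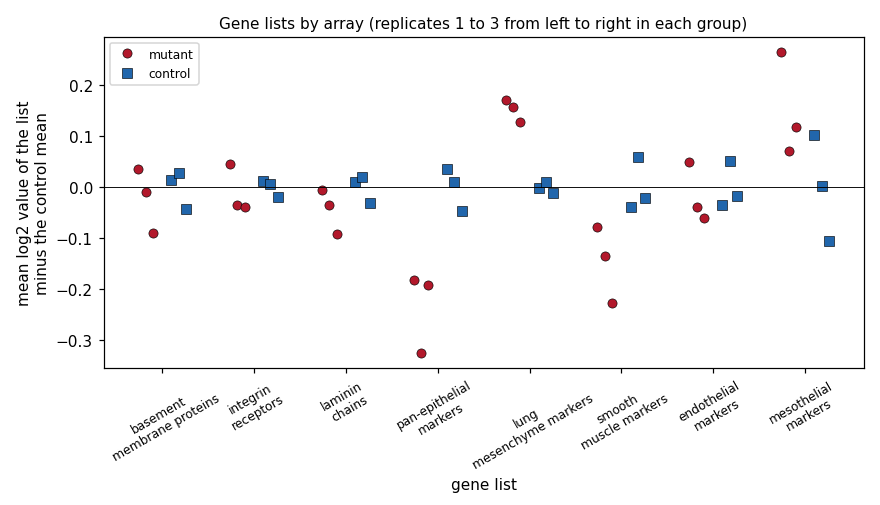
Mean log2 value of each gene list on each array, minus the mean of the control arrays, for mutants (circles) and controls (squares). The 24 matrix genes and 15 receptor genes overlap between the groups, the pan-epithelial list lies 0.18 to 0.32 below the control mean in mutants, and the mesenchyme list 0.13 to 0.17 above it.

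Itgb4, Itga6 and Col17a1, genes of the hemidesmosome to which the Lama3 and Lamb3 laminin attaches, had means that differed little or were higher in mutants. Itgb4 encodes the integrin subunit of hemidesmosomes, which binds that laminin together with the Itga6 subunit. Its values were 7.49, 7.52 and 7.57 in mutants, against 7.69, 7.42 and 7.40 in controls. Control replicate 1 was the highest of the 6, and the log2 difference was 0.024 (SE 0.08, 95% interval -0.17 to 0.22). Itga6 had 10.76, 11.03 and 10.66 in mutants, against 10.84, 10.79 and 10.67 in controls, with a log2 difference of 0.053 (SE 0.10). Its highest value came from mutant replicate 2, and without that array the log2 difference was -0.053. Among other parts of the hemidesmosome, Col17a1, its transmembrane collagen, had a log2 difference of 0.18 (SE 0.06, adjusted p = 0.338) with separate groups, higher in mutants. It had the smallest p of its list, and values of the other hemidesmosome genes are not given here. Itgb4 and Col17a1 were at signals near the median (percentiles 46.7 and 41.7 of all genes).

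Collagen IV genes lie in head-to-head pairs, and 5 of the 6 chains had log2 differences between -0.015 and 0.10. Col4a1 and Col4a2 encode the chains found in nearly every basement membrane. Col4a1 had values of 9.19, 9.15 and 9.02 in mutants, against 9.10, 9.18 and 9.10 in controls, a log2 difference of -0.0075 (SE 0.06, 95% interval -0.15 to 0.13). Col4a2 had 9.06, 9.07 and 8.89 in mutants, against 8.97, 9.05 and 8.89 in controls, a log2 difference of 0.039 (SE 0.07, 95% interval -0.12 to 0.20). The array-to-array pattern of the pair was similar. Relative to each gene's own mean over 6 arrays, both were high in mutant replicate 1 (0.065 and 0.073) and control replicate 2 (0.058 and 0.065), and low in mutant replicate 3 (-0.10 and -0.099). The widest gap between them was 0.075, in control replicate 3. Such a pattern was not particular to the pair. Hspg2, on chromosome 4, had 10.221, 10.21 and 10.025 in mutants, against 10.224, 10.246 and 10.047 in controls. It too was high in mutant replicate 1 and control replicate 2, and low in mutant replicate 3. The pairs and their array values were singled out after the values were seen.

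The promoters of this pair and of the X-linked pair are shown because, of the 3 pairs, they had the narrowest and the widest gap between their genes across arrays. They come from RefSeq (build GRCm38.p6), which gave promoters for 28 of the 39 genes, as 300 bases from 250 before to 50 after the annotated transcript start, 5′ to 3′ on the strand of the gene. Col4a1 lies at chr8:11312777-11313076 on the minus strand and Col4a2 at chr8:11312555-11312854 on the plus strand. Capitals in these 2 mark the 78 bases that both windows share, read from opposite strands.
Col4a1: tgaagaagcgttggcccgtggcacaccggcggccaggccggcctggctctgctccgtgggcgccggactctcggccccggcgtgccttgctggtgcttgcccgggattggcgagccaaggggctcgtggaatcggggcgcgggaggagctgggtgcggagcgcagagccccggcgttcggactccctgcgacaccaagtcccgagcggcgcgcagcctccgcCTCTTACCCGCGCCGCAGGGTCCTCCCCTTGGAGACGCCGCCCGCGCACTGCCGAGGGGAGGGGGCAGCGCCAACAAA
Col4a2: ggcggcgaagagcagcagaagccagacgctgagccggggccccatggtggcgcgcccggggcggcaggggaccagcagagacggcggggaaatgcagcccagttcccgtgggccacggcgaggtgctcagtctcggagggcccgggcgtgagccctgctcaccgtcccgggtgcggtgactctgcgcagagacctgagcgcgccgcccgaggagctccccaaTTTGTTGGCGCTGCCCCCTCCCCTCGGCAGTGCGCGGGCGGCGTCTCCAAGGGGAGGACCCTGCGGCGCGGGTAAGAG
Their annotated starts are 21 bases apart, so 1 stretch of DNA serves as the start region of both genes. Col4a6 lies at chrX:141474027-141474326 on the minus strand and Col4a5 at chrX:141475169-141475468 on the plus strand, with starts 1343 bases apart and no shared base between the windows. Capitals in the next 2 mark matches to GGGCGG, the core of the GC box, and to CCAAT, on either strand.
Col4a6: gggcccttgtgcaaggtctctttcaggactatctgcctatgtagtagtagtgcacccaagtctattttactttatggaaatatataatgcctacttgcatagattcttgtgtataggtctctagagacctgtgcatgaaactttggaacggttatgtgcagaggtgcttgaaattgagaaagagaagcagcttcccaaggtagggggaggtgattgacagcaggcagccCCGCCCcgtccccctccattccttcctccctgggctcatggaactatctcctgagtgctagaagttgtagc
Col4a5: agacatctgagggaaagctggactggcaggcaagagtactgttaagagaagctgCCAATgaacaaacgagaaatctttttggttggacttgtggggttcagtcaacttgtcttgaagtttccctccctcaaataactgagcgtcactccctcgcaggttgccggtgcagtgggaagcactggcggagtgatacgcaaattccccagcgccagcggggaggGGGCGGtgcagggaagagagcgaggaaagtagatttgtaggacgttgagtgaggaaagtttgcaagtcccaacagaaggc
On both strands, and with no overlap between these motifs, GGGCGG was found 1 time in Col4a1, 3 times in Col4a2 and 1 time each in Col4a6 and Col4a5. One match of Col4a2 and that of Col4a1 are the same bases in the shared stretch. CCAAT was found 1 time each in Col4a1, Col4a2 and Col4a5 and not in Col4a6. Of 32851 promoter windows of the same length, 35.7% hold GGGCGG and 37.4% hold CCAAT. The letters TATAAA (in 13.6% of windows) and TGANTCA (in 7.81%) are not in these 4 windows. The G and C content was 74% for Col4a1 and 73.7% for Col4a2, against 48.3% for Col4a6, 52.7% for Col4a5 and a median of 52.7% over all windows. These matches are descriptions of sequence.

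Col4a6 was the collagen IV gene with an unadjusted p under 0.05. Its product joins that of Col4a5 in the basement membranes of smooth muscle and some epithelia. The values were 7.830, 7.625 and 7.703 in mutants, against 7.926, 8.004 and 7.796 in controls. Mutant replicate 1 lay just above control replicate 3, so the groups overlapped. The log2 difference was -0.19 (SE 0.08, adjusted p = 0.372), or 87.7% of the control level. Its neighbour Col4a5 had 8.33, 8.37 and 8.35 in mutants, against 8.35, 8.42 and 8.32 in controls, a log2 difference of -0.015 (SE 0.05, 95% interval from -0.13 to just under 0.1). Across the arrays Col4a6 spanned 0.38 log2 units and Col4a5 spanned 0.11, and their deviations differed by up to 0.20, in mutant replicate 2. Col4a3 and Col4a4, the chains of the adult glomerular and alveolar network, had log2 differences of 0.10 (SE 0.06) and 0.015 (SE 0.07), again at signals near or below the median of all probe sets. Their deviations differed by up to 0.10, over ranges of 0.20 and 0.22.

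**Figure D5:**
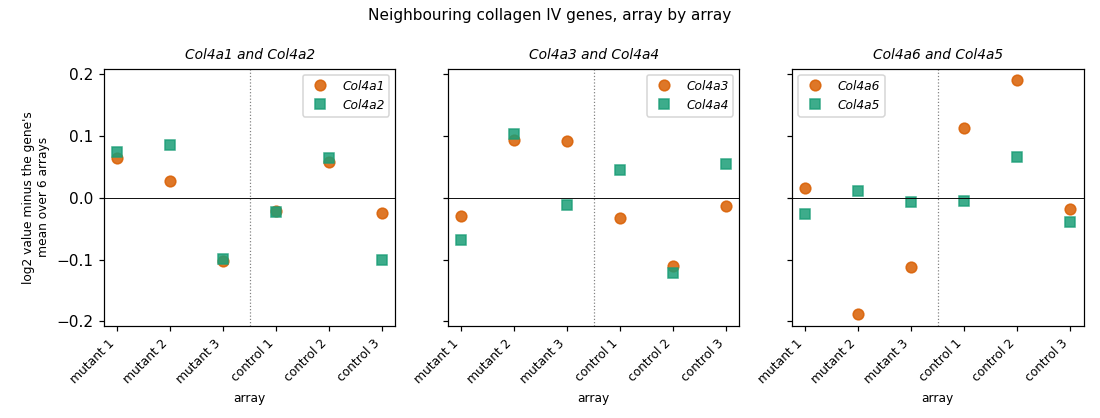
Log2 value minus the gene's own mean over all 6 arrays, for each head-to-head pair of collagen IV genes, with the 3 mutant arrays left of the dotted line and the 3 control arrays right of it. Col4a1 and Col4a2 differ by at most 0.075 on any array, whereas Col4a6 swings over 0.38 log2 units and Col4a5 over 0.11.

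Among the linkers, the nidogens bridge laminin and collagen IV. Nid2 had values of 10.07, 9.87 and 9.89 in mutants, against 9.79, 9.79 and 9.76 in controls. All mutants were higher, replicate 1 by the most, and the log2 difference was 0.17 (SE 0.06, adjusted p = 0.363). Without mutant replicate 1 it was 0.10 and no longer at an unadjusted p under 0.05. Its paralog Nid1 had 11.35, 11.49 and 11.06 in mutants, against 11.22, 11.21 and 11.23 in controls. The mutants scattered on both sides of the tightly grouped controls (SD 0.22 in mutants, 0.0088 in controls). The log2 difference of 0.077 (SE 0.10) became -0.020 without mutant replicate 2 and 0.20 without mutant replicate 3. A second Nid1 probe set gave 10.64, 10.66 and 10.34 in mutants, against 10.41, 10.48 and 10.29 in controls, a difference of 0.15. The heparan sulfate proteoglycan genes Hspg2 (perlecan) and Agrn (agrin) had log2 differences of -0.021 (SE 0.08) and -0.077 (SE 0.07).

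The Fraser complex joins embryonic epithelia to the mesenchyme below them, and Fras1, Frem1 and Frem2 proteins depend on each other for their place in the sheet. Frem1 had values of 10.91, 10.73 and 10.68 in mutants, against 10.97, 10.96 and 11.08 in controls. The groups were separate, with mutant replicate 1 nearest to the controls, and the log2 difference was -0.23 (SE 0.07, adjusted p = 0.301), or 85.2% of the control level. Fras1 had 10.35, 10.20 and 10.23 in mutants, against 10.31, 10.31 and 10.09 in controls, and a log2 difference of 0.020 (SE 0.08). Frem2 had 10.87, 10.75 and 10.56 in mutants, against controls that spanned 10.63 to 11, and a log2 difference of -0.075 (SE 0.11). Both overlapped between the groups. In mouse skin Frem1 is made mainly by dermal cells, and Fras1 and Frem2 by the epidermis.

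Nephronectin, a ligand of the integrin of Itga8 and Itgb1, is best known from kidney development. Npnt had 10.70, 10.47 and 10.36 in mutants, against 10.44, 10.38 and 10.33 in controls, with mutant replicate 1 the highest and mutant replicate 3 inside the control range. The log2 difference was 0.13 (SE 0.09), and 0.034 without mutant replicate 1. For its receptor gene Itga8 the values were 11.29, 11.08 and 11.18 in mutants, against 11.16, 11.18 and 11.11 in controls, a log2 difference of 0.034 (SE 0.06). Itgb1, the beta subunit shared by most matrix-binding integrins, had a log2 difference of 0.046 (SE 0.05, 95% interval -0.072 to 0.16).

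Of the 9 integrin alpha subunits, 2 were at an unadjusted p under 0.05, both lower (22.2%, against 5.15% of all genes). Itga1 encodes a collagen receptor subunit common on smooth muscle and fibroblasts. It had 10.04, 10.05 and 9.93 in mutants, against 10.13, 10.15 and 10.29 in controls. The groups were separate by a narrow margin, and the log2 difference was -0.19 (SE 0.06, adjusted p = 0.320). Itga9 encodes a receptor subunit for tenascin and fibronectin that is needed for lymphatic valves. It had 10.20, 10.11 and 9.91 in mutants, against 10.28, 10.28 and 10.31 in controls. The controls were tightly grouped and the mutants spread below them, with mutant replicate 3 lowest, and the log2 difference was -0.22 (SE 0.08, adjusted p = 0.338). Without mutant replicate 3 it was -0.13 and no longer at an unadjusted p under 0.05.

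Smooth muscle markers were also lower in mutants, and their part in these integrin values was not tested. Of 10 such genes 8 had lower means in mutants, and the median log2 difference was -0.11. At an unadjusted p under 0.05 there were 4, all lower (40%, against 5.15% of all genes). Their mean log2 value was 9.67, 9.61 and 9.52 in mutants, against 9.71, 9.81 and 9.73 in controls. Mutant replicate 3 was the lowest array, as for Itga1 and Itga9, but this was not particular to smooth muscle genes. It was also lowest in the mean of all 39 members (9.525, against 9.56 to 9.63 in the other arrays). The same held for endothelial markers (9.67, against 9.69 to 9.78).

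The other alpha subunits overlapped between the groups, apart from Itgav. Itga3, the laminin receptor subunit of lung and kidney epithelia, had 9.44, 9.10 and 9.35 in mutants, against 9.38, 9.54 and 9.38 in controls, a log2 difference of -0.14 (SE 0.09). That difference was -0.040 without mutant replicate 2, its lowest array. The collagen receptor gene Itga2, the fibronectin receptor gene Itga5 and the Vcam1 and fibronectin receptor gene Itga4 had log2 differences of 0.0036, -0.059 and 0.073, with intervals between -0.27 and 0.25.

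Itgav pairs with several beta subunits to bind RGD motifs, and with those of Itgb6 and Itgb8 it activates latent TGF-beta. Itgav had 10.61, 10.63 and 10.60 in mutants, against 10.66, 10.69 and 10.68 in controls. The groups were separate but the step was small, a log2 difference of -0.068 (SE 0.04, adjusted p = 0.544), or 95.4% of the control level. A second, much dimmer Itgav probe set differed by -0.015. Itgb8 had 9.53, 9.54 and 9.59 in mutants, against 9.49, 9.36 and 9.21 in controls. The mutants were tightly grouped above the controls, with control replicate 1 just below them, and the log2 difference was 0.20 (SE 0.07, adjusted p = 0.351), or 115% of the control level. Without control replicate 3 it was 0.13 and no longer at an unadjusted p under 0.05.

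The remaining partners of Itgav overlapped between the groups. Itgb3, known from platelets and bone, had 8.29, 8.23 and 8.11 in mutants, against 8.08, 8.22 and 8.07 in controls. Its log2 difference was 0.086 (SE 0.07). Itgb5, a vitronectin receptor subunit, had 10.80, 10.51 and 10.67 in mutants, against 10.49, 10.66 and 10.56 in controls, a log2 difference of 0.088 (SE 0.08). Itgb6, which is confined to epithelia in most tissues, had 6.76, 6.64 and 6.90 in mutants, against 6.90, 6.80 and 6.80 in controls, at signals below the median of all probe sets. Its log2 difference was -0.068 (SE 0.07, 95% interval -0.24 to 0.10). Of the 6 beta subunits 5 had higher means in mutants, with a median of 0.066. At an unadjusted p under 0.05 there was 1, which was higher (16.7%, against 7.34% of all genes).

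Leaving out arrays changed how many members stood out. When each array was left out in turn, 4 genes were at an unadjusted p under 0.05 in all 6 fits. These were Lama1, Lama5, Lamb3 and Frem1, all with lower means in mutants. The share of all genes for which this held was not counted, so these 4 have no background beside them. The count of members at that level, 11 with all arrays, was 7 without control replicate 2, 7 without control replicate 3 and 8 to 11 without any other array. Over all genes the count also fell there, to 1797 without control replicate 2 and 2105 without control replicate 3, against 2770 with all arrays. With 1 mutant array left out it was 2198 to 2770 over all genes, with 9 to 11 members. Without control replicate 1 it rose to 3084 over all genes, while the count of members fell to 8. Without control replicate 1 and mutant replicate 2 together, 2716 of all genes were at that level. The count of members was then 7, and 6 of these were among the 11. The other 5 of the 11, Lama3, Lama5, Col4a6, Frem1 and Itga9, were no longer at that level, Lama5 and Frem1 among them although they were in each of the 6 fits before. The log2 differences were then -0.27 for Lamb3, -0.23 for Lama1, -0.16 for Lama5, -0.14 for Lama3, -0.13 for Col4a6 and -0.23 for Frem1. They were 0.22 for Lamc3, 0.21 for Nid2, 0.27 for Itgb8, -0.24 for Itga1 and -0.24 for Itga9. Itga4 joined them with 0.18. No member reached an adjusted p under 0.05 by limma in any of these fits.

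Genes that act with the members were taken from lists that were also chosen with earlier results known. None of these genes passed limma over all genes. Of 18 other basement membrane genes, 2 had higher means at an unadjusted p under 0.05 (11.1%, against 7.34% of all genes) and 1 a lower mean (5.56%, against 5.15%), with a median log2 difference of 0.046. The largest by p was the matrix glycoprotein gene Fbln2, with 8.92, 9.27 and 8.92 in mutants, against 8.55, 8.48 and 8.34 in controls. All mutants were higher, and the log2 difference was 0.58 (SE 0.10, adjusted p = 0.140). Ntn4, which encodes a netrin that binds laminin and disrupts its network, had 7.13, 7.08 and 7.13 in mutants, against 7.32, 7.37 and 7.37 in controls. Here all mutants were lower, and the log2 difference was -0.24 (SE 0.05, adjusted p = 0.156). Col17a1 has been given above, and Vwa1, which binds perlecan, had a log2 difference of 0.14 (SE 0.07).

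Of 11 other integrin subunits, 1 was at an unadjusted p under 0.05 (9.09%, against 7.34% of all genes in its direction). That was the leukocyte gene Itgad (0.16, SE 0.06), at a dim signal. The laminin receptor gene Itga7 had 7.48, 7.97 and 7.41 in mutants, against 7.47, 7.32 and 7.16 in controls, so its log2 difference of 0.31 (SE 0.15) came mostly from mutant replicate 2. Of 19 genes of the machinery that links integrins to actin, 1 was at an unadjusted p under 0.05 (5.26%, against 7.34% of all genes in its direction). That was Cd151, a tetraspanin partner of laminin-binding integrins (0.19, SE 0.07, adjusted p = 0.350, higher in all 3 mutants). The kindlin gene Fermt1, an integrin activator of epithelia, had a log2 difference of -0.23 (SE 0.10) with overlapping groups. In the list of 12 hemidesmosome and non-integrin laminin receptor genes, 3 were at that level, Col17a1, Cd151 and the dystrophin gene Dmd (-0.18, SE 0.07). Higher were 16.7% of that list and lower 8.33%, against 7.34% and 5.15% of all genes. Col17a1 and Cd151 also stand in the other lists.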

How the data were processed

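The authors deposited log2 expression values for 6 arrays, and per the submitters' processing notes oligo and RMA made them. This method corrects background, brings all arrays to a common distribution and summarises probes into probe sets, so the values show changes relative to the bulk of genes. No source used here gives versions, a build or a filter, and the log2 scale was read from the values (3.55 to 14.04). The platform annotation pairs 23521 of 41345 probe sets with 1 symbol, which gave 22180 genes, and 1814 with several, which were not used. For a gene with several probe sets the brightest over all arrays was taken.

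The groups were compared in R 4.3.3 with limma 3.58.1 (lmFit, eBayes, 1 term for group). Tests are two-sided, adjusted by Benjamini-Hochberg over all genes, with a threshold of 0.05, and intervals are 95%. The fit was tested on simulated data with log2 shifts of 0.5 and 1, of which 77% and 99% were recovered at that threshold. Of 187 calls 11 were false. Shifts as small as the differences of the members were not simulated. Figures used matplotlib 3.10.9. Members and lists were chosen with earlier results of these data known, so no list was tested. Array values are given for members with separate groups and an unadjusted p under 0.05 and for their partners, and up to 4 genes by p for each other list. Alternatives were a further quantile normalization, a 30th percentile filter, averaged probe sets, another variance model, the replicate number as a block, each array left out, and 2 arrays left out together. Nothing says that arrays came from separate litters, so p-values measure the spread between these samples.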

Additional observations from a re-analysis of the deposited data

How the results depend on the processing

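No member passed limma at an adjusted p under 0.05 in any of the 12 alternatives. The number of members at an unadjusted p under 0.05, 11 in the report, was 7 to 11 with 1 array left out, 7 without control replicate 1 and mutant replicate 2 together, and 11 or 12 in the other alternatives. Over all genes, 14 were called; the 30th percentile filter gave 25, the trend and robust prior 46, and 0 genes were called by limma with the replicate block (2511 at an unadjusted p under 0.05), without any 1 array (0 to 0; 1797 to 3084 unadjusted), or without both arrays (2716 unadjusted). The cause was not tested. The replicate numbers did not pair the arrays: deviations of same-numbered arrays correlated at -0.045, -0.061 and 0.074, and 2 of 6 arrays correlated best with their own number. With that block 11 members were at an unadjusted p under 0.05, and no member's call changed.

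The log2 difference of Fzd2 ran from -0.41 to -0.10 with 1 array left out. The median of the matrix genes ran from -0.033 to 0.029 and that of the receptor genes from -0.021 to 0.038, so neither has a stable sign. All 11 members at an unadjusted p under 0.05 kept their direction in all 12 alternatives, which says little about them. For 10 of the 11 the groups were separate, so leaving out arrays could not turn the sign. The filter, the other variance model and the block left their differences unchanged. In 16 of the other 28 the sign turned in at least 1. With 1 array left out, the range was -0.092 to 0.00030 for Lamb2, -0.079 to 0.0056 for Lamc1, -0.042 to 0.042 for Col4a1, -0.0015 to 0.098 for Col4a2, -0.042 to 0.053 for Col4a4, -0.038 to 0.015 for Col4a5 and -0.020 to 0.20 for Nid1. It was -0.083 to 0.043 for Hspg2, -0.053 to 0.058 for Fras1, -0.16 to 0.024 for Frem2, -0.074 to 0.088 for Itga2, -0.13 to 0.016 for Itga5, -0.053 to 0.13 for Itga6, -0.021 to 0.086 for Itga8 and -0.028 to 0.12 for Itgb4. A further quantile normalization turned Col4a1 to 0.0093, Col4a4 to -0.034, Hspg2 to 0.0040 and Itgb4 to -0.021. Without both arrays Col4a4 was at -0.0056, Nid1 at -0.020, Itga2 at -0.037, Itga6 at -0.017 and Itgb6 at 0.030. Signals near or below the median, as for Lamc3, Col4a3, Col4a4, Itgb4 and Itgb6, limit what those genes can show.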

Other observations

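Among integrin ligands that lie outside the basement membrane, Thbs1 had a lower mean and Vcam1 and Tnc had higher means in mutants. Of 11 such genes, 2 had higher and 1 had lower means at an unadjusted p under 0.05 (18.2% and 9.09%, against 7.34% and 5.15% of all genes), and none passed limma over all genes. The thrombospondin gene Thbs1, whose product binds integrins and activates TGF-beta, had log2 values of 12.09, 11.99 and 11.70 in mutants, against 12.30, 12.38 and 12.29 in controls. All mutants were lower, and the log2 difference was -0.40 (SE 0.10, adjusted p = 0.219). Vcam1, a ligand of the Itga4 receptor, had 9.55, 9.30 and 9.39 in mutants, against 9.02, 9.15 and 9.09 in controls. All mutants were higher, and the log2 difference was 0.32 (SE 0.07, adjusted p = 0.198). The tenascin gene Tnc, a ligand of the Itga9 receptor, had 8.67, 8.68 and 8.78 in mutants, against 8.58, 8.60 and 8.44 in controls, a log2 difference of 0.17 (SE 0.06, adjusted p = 0.337).

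Other cell type markers gave these values. Shares are set against 7.34% of all genes higher and 5.15% lower at an unadjusted p under 0.05. Mesothelial genes had a median log2 difference of 0.15 over 8 genes, with 2 at that level, both higher (25%). Leukocyte genes had one of 0.17 over 11 genes, with 4, all higher (36.4%). Neural crest and neuron genes had a median of 0.15 over 7 genes, with 2 higher (28.6%) and 1 lower (14.3%, Erbb3, -0.36) at that level. Erythroid genes had one of -0.039 over 6 genes, with 1, which was higher (16.7%). Small intestine genes (median -1.26, 10 genes) and adipose genes (median 0.99, 7 genes) were carried by control replicate 1 and mutant replicate 2, and 0 of either were at that level by limma.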
